A study of Mus musculus with 3 samples.

Results

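DNA copy number was examined at 8 genes of mismatch repair and of the kinase pathways that answer DNA damage: Msh3, Msh6, Pms2, Atm, Atr, Chek1, Chek2 and Brca2. Their members on the array were the probes that carry one of these gene names, 44 of 170305 non-control probes, and each gene was set against the probes within 500 kb on each side of it. The 8 are among 21106 gene names on the array that could be placed at 1 locus. Mismatch repair corrects errors left by DNA replication: a MutS dimer, which holds Msh6 or Msh3, recognises the mispaired bases, and a MutL dimer, chiefly the one that holds Pms2, nicks the new strand so that it can be replaced. Atm answers DNA double-strand breaks and Atr answers stalled replication forks, and they signal mainly through the checkpoint kinases Chek2 and Chek1 respectively, while Brca2 acts at resected breaks in homologous recombination. In human glioma, loss of mismatch repair, often of MSH6, is known in tumours that recur after alkylating chemotherapy.

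The study compared genomic DNA of 3 neurosphere lines, each grown from a mouse glioma that had become resistant to inhibition of the colony stimulating factor 1 receptor (CSF-1R), with mouse liver DNA on two-colour tiling arrays. The lines form 1 group of 3 samples, taken at passage 2 to 3 in neural stem cell medium and labelled with Cy5, and the liver DNA was labelled with Cy3 on every array. By the sample labels, line 1 and its liver share an animal number (animal A), and lines 2 and 3 and their livers share another (animal B). The labels name neither the genotype of the mice, nor how the tumours were induced, nor untreated or inhibitor-sensitive lines, so the values compare each line with liver and not with a sensitive tumour. DNA ratios hold no markers of cell type, so the neurosphere label was not checked here.

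All values below are log2 ratios of line over liver, centred on the median autosomal probe of each array. On an ideal array, a loss of 1 of 2 copies in every cell would give -1 and a gain to 3 copies 0.58; the response of these arrays to a known copy change was not measured here. The array of line 1 was the noisiest, with a probe-to-probe spread of 0.384 against 0.232 for line 2 and 0.238 for line 3. Dyes were not swapped and all 3 arrays came from 1 slide, so a dye effect that differs between probes cannot be told apart from a difference between lines and liver.

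Probes of the same gene did not all read alike, and the 6 sequences here show how unlike they were in ratio and how like in base composition. For each of the 3 genes with the most probes, the probe with the lowest and the probe with the highest mean over the 3 lines are printed, leaving out the outermost probes of each gene. Capitals mark G and C. The letters are those of the array's own probe column, in the order given there, positions are on mm9, and the strand was not analysed here.
Msh3, lowest, chr13:93097972-93098031: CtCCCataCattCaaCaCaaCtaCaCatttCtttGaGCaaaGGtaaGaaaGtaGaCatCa
Msh3, highest, chr13:93037901-93037960: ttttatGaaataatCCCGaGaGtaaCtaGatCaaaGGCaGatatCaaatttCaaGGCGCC
Atm, lowest, chr9:53333178-53333237: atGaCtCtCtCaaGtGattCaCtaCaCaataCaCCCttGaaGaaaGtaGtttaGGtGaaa
Atm, highest, chr9:53263103-53263162: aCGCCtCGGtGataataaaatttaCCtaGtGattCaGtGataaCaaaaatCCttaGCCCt
Atr, lowest, chr9:95812897-95812956: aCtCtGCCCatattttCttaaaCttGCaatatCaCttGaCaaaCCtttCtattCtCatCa
Atr, highest, chr9:95770300-95770359: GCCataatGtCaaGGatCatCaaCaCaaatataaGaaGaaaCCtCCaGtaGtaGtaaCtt

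The lowest Msh3 probe read -0.66, -0.42 and -0.62 in lines 1, 2 and 3, and the highest read 0.29, -0.08 and -0.12. For Atm the lowest probe read -0.72, -0.31 and -0.30, and the highest 0.32, 0.11 and -0.01. The lowest Atr probe read -0.48, -0.33 and -0.31, against 0.28, 0.33 and 0.28 for the highest. G and C made up 36.7% of the bases in each of the Msh3 and Atm probes shown, and 33.3% and 35% in the low and high Atr probes. All 44 probes were 59 or 60 bases long and held 33.3% to 39.0% G and C. Whether a probe lies in an exon or an intron was not analysed here.

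Msh3 and Atm read lower than the DNA around them in all 3 lines, and they were the tested members that passed. Of the 8 genes, 5 had at least 3 probes and were tested with limma against 0 together with 9430 genes. Of these 5, Msh3 and Atm passed an adjusted p of 0.05 and both lay below 0. The same held for the difference between gene and flanks. Lines 2 and 3 share an animal, and with their mean taken as 1 sample no member passed at gene level (Msh3 -0.17, limma adjusted p = 0.0924; Atm -0.23, 0.0502), whereas both passed against their flanks (-0.22, 0.0133; -0.26, 0.00554). In that averaged fit 731 of 9430 genes passed at gene level and 1716 for gene minus flanks. Over all genes tested in the fit of 3 lines, 24.1% passed at gene level, 9.94% below 0 and 14.2% above it. For gene minus flanks 24% passed, 13.9% with the gene below its flanks and 10.1% above. A called gene was thus common on these arrays, and 2 of 5 members rests on few genes.

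Msh3, the MutS subunit for larger insertion and deletion loops, had 13 probes over chr13:92991108-93117239. They averaged -0.14, -0.17 and -0.25 in lines 1, 2 and 3. All 3 lines lay below 0, with a mean of -0.19 ± 0.057 (SD, n = 3) and a limma adjusted p of 0.0183. Within line 1 alone, the 95% interval over probes ran from -0.31 to 0.04 and included 0; it ran from -0.26 to -0.09 in line 2 and from -0.36 to -0.13 in line 3. The 67 flank probes averaged 0.06, 0.06 and 0.04, above the gene in every line. Gene minus flanks was -0.19, -0.23 and -0.28, with a mean of -0.24 ± 0.048 (SD, n = 3), a 95% interval of -0.32 to -0.15 and a limma adjusted p of 0.0122. Of the 13 probes, 6 were below 0 in all lines and 8 were below the flank mean in all lines, and none was above the flank mean in all lines. At 1 of the 13 probes the liver signal was not well above background on the 3 arrays, nor the line signal on 2 of them; without it, gene minus flanks was -0.21, -0.22 and -0.29. At gene level the mean was -0.19 without line 2 (limma adjusted p = 0.0844) and -0.16 without line 3 (0.105); neither passed, and the genes that passed overall fell from 2276 to 1064 and 1258. The difference from the flanks passed with any 1 line left out. So did 3803, 1014 and 1387 of 9430 genes without lines 1, 2 and 3 respectively.

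The Msh3 probes were also averaged in parts along the gene, and the parts were not tested against each other. The 6 probes at lower coordinates averaged 0.03, -0.13 and -0.20 in lines 1, 2 and 3, and the 7 at higher coordinates averaged -0.28, -0.21 and -0.29. Line 1 was thus near 0 over the first stretch and low over the second, while lines 2 and 3 were low over both. The probe just before the first named Msh3 probe, 9.81 kb away and with no gene name, counted among the flanks although it read -0.82, -0.51 and -0.66; it is singled out here after its values were seen. The lower flank held 19 probes and the upper 48, because no probe lay over 654018 bp inside Rasgrf2. Within 150 kb of the gene the ratios averaged about 0 on both sides. The 13 upper probes averaged 0.03, 0.04 and 0.01. The 13 lower ones, the singled-out probe included, averaged -0.01, -0.02 and -0.06. Rasgrf2, the neighbour at lower coordinates with 26 probes, averaged 0.06 in each of lines 1 and 3 and 0.08 in line 2 (limma adjusted p = 0.256).

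Atm, the kinase that answers double-strand breaks, gave a similar value with 10 probes over chr9:53255595-53339466. They averaged -0.26, -0.19 and -0.21 in lines 1, 2 and 3, or -0.22 ± 0.037 (SD, n = 3; limma adjusted p = 0.0100). All 3 lines were below 0, and so were their 95% intervals over probes, whose upper bounds were -0.05, -0.06 and -0.08. The 80 flank probes averaged 0.05, 0.01 and 0.00, so every line was lower at the gene than beside it. Gene minus flanks was -0.31, -0.19 and -0.21, a mean of -0.24 ± 0.065 (SD, n = 3; 95% interval -0.33 to -0.14; limma adjusted p = 0.0133). Of the 10 probes, 8 were below 0 in all lines. The lower-coordinate 5 probes averaged -0.14, -0.13 and -0.18, and the higher-coordinate 5 averaged -0.38, -0.25 and -0.23. Both stretches were low in every line, the higher-coordinate one the more so, though they were not tested against each other.

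The genes beside Atm did not share its reading. Npat, a histone gene activator, has its nearest probe 17.1 kb from the last Atm probe, and its 4 probes averaged 0.12, -0.09 and 0.01 (mean 0.02, limma adjusted p = 0.834). Exph5, on the other side with 8 probes, averaged 0.02, 0.00 and 0.02 (limma adjusted p = 0.828). Flank probes 0 to 150 kb from Atm averaged 0.05, 0.01 and -0.00 before it and 0.21, 0.01 and 0.06 after it.

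**Figure D1:**
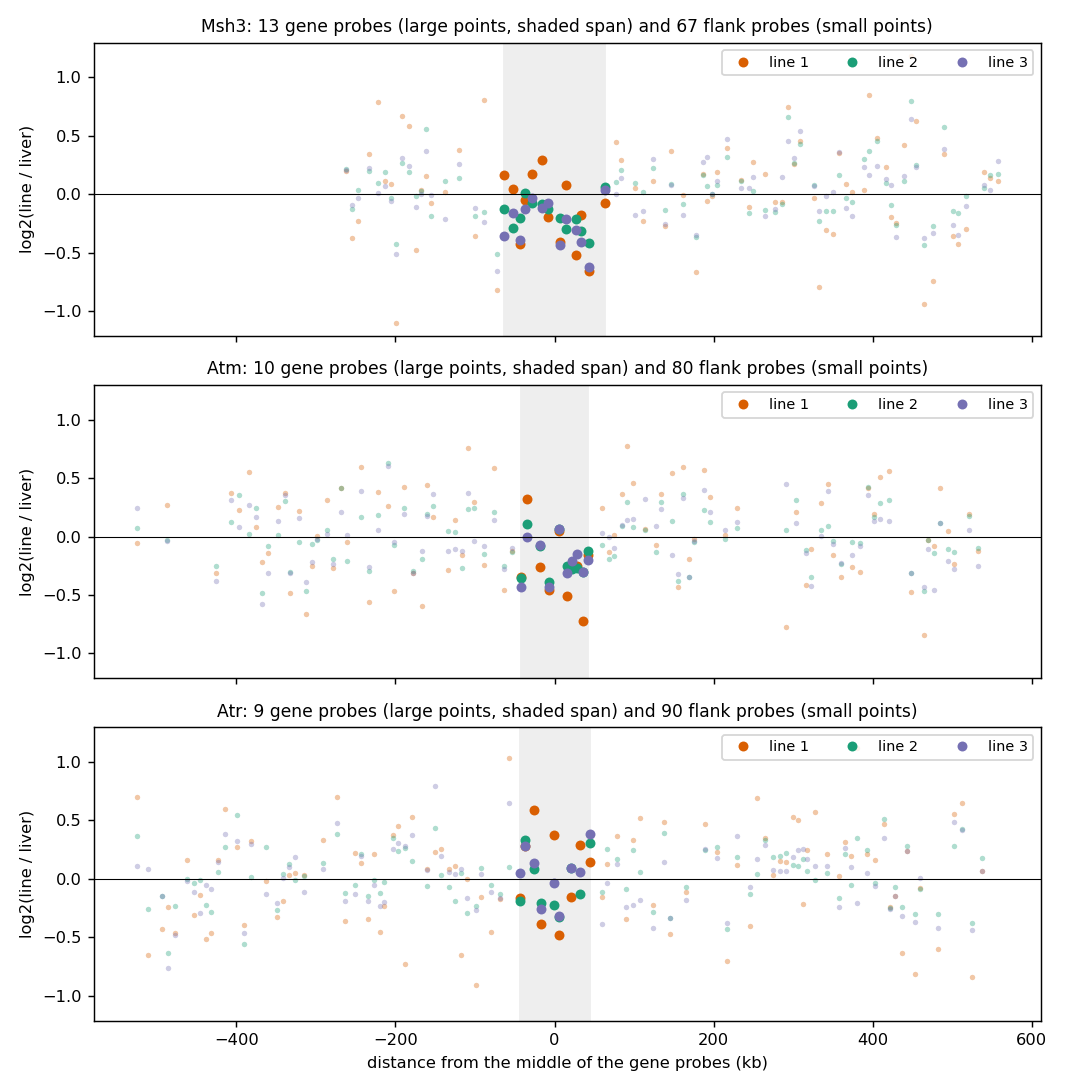
Log2 ratio of line over liver at each probe against its distance in kb from the middle of the gene's probes, for Msh3, Atm and Atr; large points over the grey span are gene probes, small points are flank probes, and colours are the 3 lines. Most Msh3 and Atm probes lie below 0, the Atr probes lie on both sides of it, and the lower Msh3 flank has no probes far from the gene.

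Atr, the kinase of stalled forks, lies on the same chromosome as Atm and had 9 probes over chr9:95763254-95851246. Its mean was 0.05, -0.03 and 0.04 in lines 1, 2 and 3, on both sides of 0. The 90 flank probes lay at a mean of 0.02, and gene minus flanks was 0.02, -0.06 and 0.03. The mean difference was 0.00 ± 0.050 (SD, n = 3), with a 95% interval of -0.09 to 0.09 (limma adjusted p = 0.995). Each Atr value was above all 3 values of Atm, and the pair was not tested against each other. Pls1 and Xrn1, the neighbours of Atr, averaged -0.05 and -0.02 (limma adjusted p = 0.486 and 0.784).

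Chek2, the checkpoint kinase downstream of Atm, had 3 probes over chr5:111277880-111296595. They averaged -0.00, -0.11 and -0.08, and gene minus flanks was -0.06, -0.17 and -0.04. The mean difference was -0.09 ± 0.068 (SD, n = 3), with a 95% interval of -0.18 to 0.01 (limma adjusted p = 0.150). All 3 lines were on the same side, yet the direction was not stable, since the mean difference became 0.07 in the authors' deposited value table, 0.06 after loess and 0.10 after normexp background correction. Without line 1, which left animal B alone, the difference was -0.10 and passed (limma adjusted p = 0.0423). In that fit 3803 of 9430 genes passed. Ttc28, the neighbour with 43 probes, averaged 0.03, and Ep400 on the other side averaged 0.00.

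Brca2 had 4 probes over chr5:151336312-151363117, which averaged 0.03, 0.16 and 0.10. Gene minus flanks was -0.01, 0.11 and 0.05, a mean of 0.05 ± 0.059 (SD, n = 3; 95% interval -0.04 to 0.14; limma adjusted p = 0.375). It did not pass, and it too changed sign with the processing, to -0.03 in the authors' deposited value table, -0.07 after loess and -0.11 after normexp. At gene level Brca2 passed without line 1, which left animal B alone, at 0.13 (limma adjusted p = 0.0256). In that fit 3193 of 9430 genes passed. Fry, next to it with 25 probes, averaged -0.02. The 3 probes of the other neighbour, named ENSMUST00000164332 on the array, averaged -0.13, -0.22 and -0.06 and lay below their flanks by a mean of -0.19 (limma adjusted p = 0.0265).

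Msh6, Pms2 and Chek1 had fewer than 3 probes each and were outside the main test, so their values rest on 1 or 2 oligonucleotides. They were tested in a further fit that took in all genes with at least 1 probe, in which 22.6% of 21106 genes passed at gene level and 22.1% of 21096 for gene minus flanks. Past the threshold in that fit were 8.95% of genes below 0 and 13.6% above it, and 11.5% below and 10.6% above their flanks. Msh6, the MutS subunit for base mismatches, had 1 probe at chr17:88382500-88382559. It read -0.28, -0.18 and -0.20, below flanks that averaged 0.07 over the lines, and gene minus flanks was -0.28 ± 0.059 (SD, n = 3; limma adjusted p = 0.0239 in that fit). Its neighbours Kcnk12 and Fbxo11, with 5 and 9 probes, averaged -0.11 and 0.05 and neither passed (limma adjusted p = 0.130 and 0.483). The Fbxo11 mean held 1 probe at 0.56, 1.67 and 1.57 in lines 1, 2 and 3, singled out after its values were seen. The Fbxo11 probes nearest to Msh6 read -0.25, -0.31 and -0.39, then -0.06, -0.22 and -0.09, then -0.29, -0.16 and -0.26. On the other side the nearest probe, with no gene name, read 0.62, -0.08 and 0.71.

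Chek1, the checkpoint kinase downstream of Atr, had 2 probes over chr9:36520964-36533632. The first read -0.11, -0.08 and -0.20 and the second -0.35, -0.47 and -0.50. Both were below 0 in every line but differed from each other by more than the lines did. Gene minus flanks was -0.26, -0.27 and -0.34, with a mean of -0.29 ± 0.042 (SD, n = 3; limma adjusted p = 0.0223 with at least 1 probe). The nearest genes with at least 3 probes on each side of Chek1 averaged above 0. AK006426, on one side, averaged 0.25, 0.21 and 0.27 over 3 probes (limma adjusted p = 0.00711 in the main fit). Its probes were unlike, from -0.48, -0.27 and -0.06 to 1.01, 0.56 and 0.67. Stt3a, an oligosaccharyltransferase subunit, averaged 0.11 (limma adjusted p = 0.133). The lower flank probe nearest to Chek1, named Acrv1, read -0.18, -0.27 and -0.34. The 27 lower flank probes averaged -0.02, -0.09 and -0.10, and the 48 upper ones 0.06, 0.04 and 0.04.

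Pms2, the nicking subunit of the main MutL dimer, was the member that read highest. Its 2 probes over chr5:144674721-144688024 read 0.23, 0.30 and 0.28, and 0.59, 0.47 and 0.26. Gene minus flanks was 0.41, 0.34 and 0.28, all above 0, with a mean of 0.34 ± 0.067 (SD, n = 3; limma adjusted p = 0.0203 with at least 1 probe). The neighbour Eif2ak1 averaged -0.05 over 4 probes (limma adjusted p = 0.472). On the other side the gene named ENSMUST00000167009 averaged 0.13 over 4 probes (limma adjusted p = 0.0519). In the fit with at least 1 probe, Msh3 had an adjusted p of 0.0502 at gene level and 0.0289 against its flanks, and Atm 0.0327 and 0.0311.

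**Figure D2:**
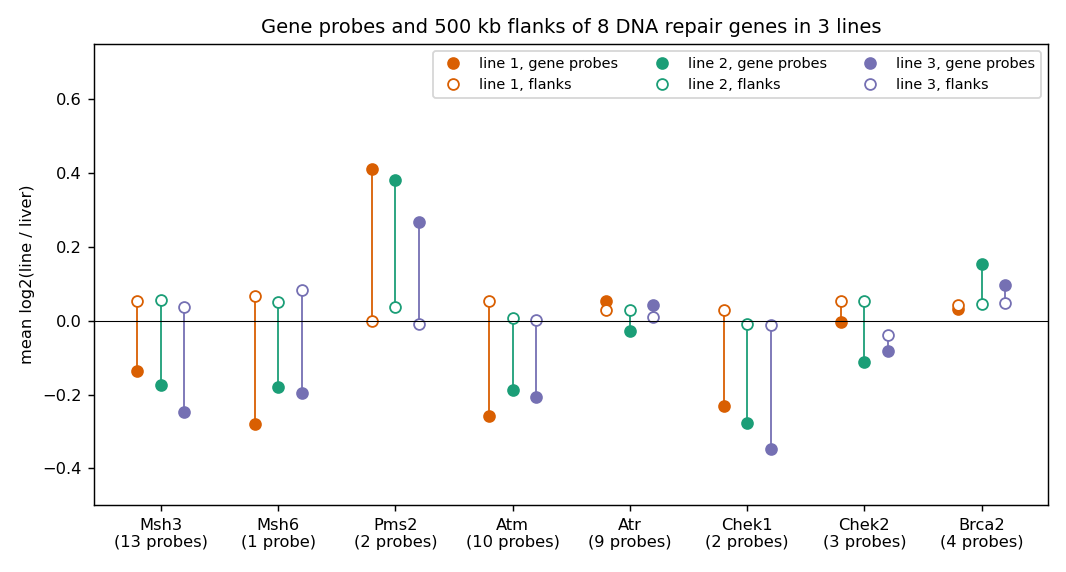
Mean log2 ratio of line over liver for the gene probes (filled) and the probes within 500 kb on each side (open) of the 8 genes, joined by a line, in each of the 3 neurosphere lines. Flank means stay between -0.04 and 0.08. In every line the gene means of Msh3, Msh6, Atm, Chek1 and, by less, Chek2 lie below their own flanks, and those of Pms2 above theirs.

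The DNA around the 8 genes read near 0 in every line. Flank means over 67 to 98 probes ran from -0.04 to 0.08, and none of the 5 tested members' flanks passed the threshold (42.3% of genes did, 10.5% below 0 and 31.8% above). In the fit with at least 1 probe, which took in all 8, the flanks of Msh6 passed at 0.07 (limma adjusted p = 0.0138), as did 43.9% of genes. None of the flank means was 0.2 or more from 0 in any line, which was so for 0.817% of genes in some line. When each array was divided into stretches of even ratio, the 24 stretches that hold the 8 genes in the 3 lines averaged -0.02 to 0.06 over 3360 to 10174 probes, and none reached 0.2 from 0. With a looser penalty and a minimum of 5 probes they averaged -0.06 to 0.10, and again none was called. The first run needed at least 10 probes in a stretch, so a gene with fewer could not form a stretch of its own. With 5 probes this still held for Msh6, Pms2, Chek1, Chek2 and Brca2. A stretch of exactly the gene's probes could not reach 0.2 for Msh3 in lines 1 and 2 (-0.14 and -0.17). The same held for Atm in line 2 (-0.19). Whether the shift of Msh3 or Atm in the remaining lines could be called over so few probes was not tested. These runs thus describe stretches much larger than the genes. The lowest bound of any 95% interval over probes for Msh3, Atm and Atr was -0.47, in the Atm of line 1; these intervals cover the spread of a gene's probes within an array, not that between lines.

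Against other genes, the values of Msh3 and Atm were among the lower ones. Gene minus flanks was at or below that of Msh3 in 361 of 9430 genes (3.83%) and at or below that of Atm in 346 (3.67%). Among the 2759 genes with at least 10 probes, of which 9.79% passed below their flanks, 26 (0.942%) were at or below Msh3 and 22 (0.797%) at or below Atm. The cut at 10 probes was not one of the planned probe minimums. It equals the probe number of Atm, and of the tested members only Msh3 and Atm reach it. Atr, Chek2 and Brca2 lay further from the low end of the 9430 genes, with 53.2%, 24.9% and 69% at or below them. The genes nearest to Msh3 over the 3 lines were Mthfd1 on chromosome 12 and Hbs1l on chromosome 10, with root mean square differences of 0.012 and 0.014. For Atm they were Gyk and Tmem29, both on chromosome X, at 0.0084 and 0.0088. Such likeness was common, as 128 genes lay within 0.05 of Msh3 and 156 within 0.05 of Atm.

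Over single probes, 20 of the 44 were below 0 in all 3 lines and 8 above 0 in all 3, against 34% and 33.4% of all autosomal probes. Msh3 and Atm held 14 of the 20, out of 23 probes. The 21 probes of the other 6 genes held 6 below and 7 above. Across the 44 probes the ratios of lines 2 and 3, from animal B, had a Pearson correlation of 0.862 (Spearman 0.855). Lines 1 and 2 gave 0.680 (0.650) and lines 1 and 3 gave 0.685 (0.680). Both of the lower pairs hold line 1, whose array had the largest probe-to-probe spread (0.384 against 0.232 and 0.238). What set the pairs apart was not tested. These are correlations across probes, which are not replicates, and the same probes share their sequence, dye and slide on every array. Over all autosomal probes the 3 Pearson values were 0.819, 0.699 and 0.643.

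**Figure D3:**
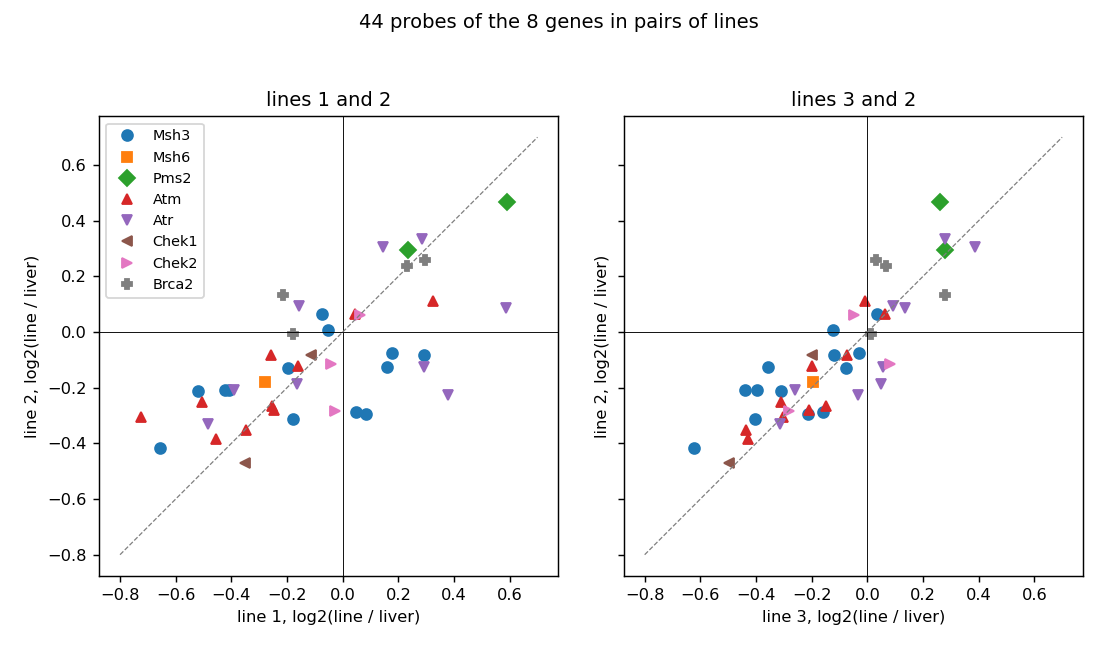
Log2 ratio of line over liver of each of the 44 probes in line 2 against line 1 (left) and against line 3 (right), with a symbol for each gene and a dashed line where the values are equal. The points lie closer to the line for lines 2 and 3 (Pearson correlation 0.862) than for lines 1 and 2 (0.680). The array of line 1 was the noisiest.

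The animals were compared for the 5 members with at least 3 probes, with 1 line from animal A that is assumed to vary like lines 2 and 3. None of the 5 passed. The mean of lines 2 and 3 minus line 1 was -0.08 for Msh3 (95% interval -0.23 to 0.08, adjusted p = 0.637), 0.06 for Atm (-0.10 to 0.22, adjusted p = 0.713) and -0.05 for Atr (-0.21 to 0.11, adjusted p = 0.800). It was -0.10 for Chek2 (-0.25 to 0.06, adjusted p = 0.520) and 0.09 for Brca2 (-0.06 to 0.25, adjusted p = 0.526). In that contrast 8.56% of genes passed. The intervals are wide and take in differences of about the size of the Msh3 and Atm means themselves.

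The other genes of these pathways were read from 4 lists: mismatch repair, damage kinases and checkpoint, homologous recombination with the Fanconi genes, and other DNA repair routes. Of 103 listed genes 95 had a named probe, and 48 besides the members had at least 3 probes and were tested. Of the 48, 3 passed above their flanks and 8 below, and the median difference was 0.00 against -0.01 over all genes. At gene level 3 passed above 0 and 6 below. Over all genes tested, 10.1% passed above their flanks and 13.9% below, and at gene level 14.2% passed above 0 and 9.94% below. The lists therefore held passing genes in both directions, and for gene minus flanks the share that passed was near that over all genes. Each list alone rests on few genes, so its counts below are descriptions only.

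Among the 10 other mismatch repair genes, 1 passed above its flanks and 2 below. Mlh3, a MutL subunit, averaged 0.16, 0.25 and 0.27, and 0.15 above its flanks (limma adjusted p = 0.0388). Pms1, another MutL subunit, averaged -0.08, -0.12 and -0.11 over 10 probes and -0.17 against its flanks (limma adjusted p = 0.0235), all lines being below 0. Lig1, the ligase that seals the repaired strand, averaged -0.48, -0.11 and -0.35, and -0.30 against its flanks (limma adjusted p = 0.0257).

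Of the 10 other damage kinase and checkpoint genes, 1 passed above and 1 below. Nbn and Rad50 are subunits of the complex that recruits Atm to breaks, and they went opposite ways: Nbn was 0.16 above its flanks (limma adjusted p = 0.0240) and Rad50 was at -0.15 against them (limma adjusted p = 0.0452). Mre11a, the third subunit, was at -0.09 and did not pass (limma adjusted p = 0.133). Prkdc, the related kinase of end joining, had 19 probes and was at 0.04 against its flanks (limma adjusted p = 0.544).

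Among 15 other homologous recombination and Fanconi genes, Bard1, the partner of Brca1, passed below its flanks at -0.18 (limma adjusted p = 0.0412) and none passed above. Rad51c, a recombination gene, passed at gene level at 0.17 (limma adjusted p = 0.041) and was 0.14 above its flanks (limma adjusted p = 0.086). Of 13 genes of other repair routes, 4 passed below and 1 above. The excision repair genes Xpc and Ercc5 were at -0.29 and -0.26 against their flanks (limma adjusted p = 0.00940 and 0.0102). The end joining genes Xrcc6 and Xrcc4 were at -0.31 and -0.15 (limma adjusted p = 0.00844 and 0.0320), whereas Xrcc5, which pairs with Xrcc6 as Ku, was at 0.15 (limma adjusted p = 0.0276). Neil3, a base excision glycosylase, passed at gene level at -0.17 (limma adjusted p = 0.040) but was at -0.04 against its flanks (limma adjusted p = 0.647).

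**Figure D4:**
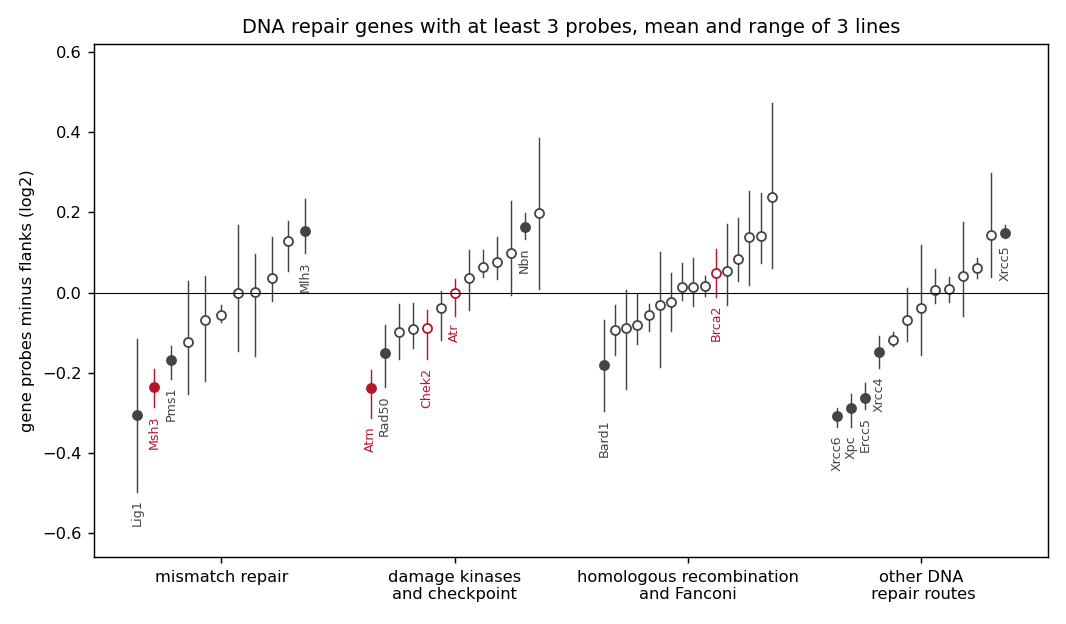
Mean difference in log2 ratio between gene probes and flanks for each gene of the 4 lists with at least 3 probes; points are means over the 3 lines, bars run from the lowest to the highest line, filled points passed the limma threshold, and the tested members among the 8 genes are red. Msh3 and Atm are among the lower genes of their lists, and passing genes lie on both sides of 0 in the first 2 lists and in the last.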

How the data were processed

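Each array was scanned and processed with Agilent Feature Extraction 10.7.3.1, and positions are on mm9, per the file headers. The processed intensity of each channel is deposited after background subtraction and dye normalization, per the file headers. The authors' deposited value table holds log10 ratios, with a centring not given in the sources used here. Of 180880 spots, 6575 controls were left out. Log2 ratios of Cy5 over Cy3 were centred on the autosomal median of each array, replicate spots were averaged, and a gene was the mean of its probes. Names on more than 1 chromosome or spanning over 3 Mb were dropped. Genes with at least 3 probes and, for flanks, 10 flank probes were tested with limma 3.58.1 (R 4.3.3) against 0 over the 3 lines, with Benjamini-Hochberg adjustment over all 9430 genes. Since lines 2 and 3 share an animal, the p-values measure the spread between these samples. An exact sign-flip test of 3 lines cannot go below 0.25. The steps were tested on simulated data.

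Genes were named by rule: the 8 members; up to 20 listed genes past the threshold; the nearest genes with at least 3 probes on each side; and for each member that passed the 2 genes nearest by root mean square difference; some of these are not reported here. Mre11a and Prkdc were added after their values were seen. Members and lists were chosen with earlier results of these data known. At least 96.4% of probes were well above background in the liver channel and 99.1% in the line channel. Precision is limited by the number of arrays, and no member probe was saturated.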

Additional observations from a re-analysis of the deposited data

How the results depend on the processing

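Of 264 alternative values for single members, 226 kept their direction and side of the threshold. Msh3 and Atm stayed past it for gene minus flanks in 18 of 18 alternatives each (-0.26 to -0.20 and -0.28 to -0.20). Some alternatives could not move this difference, so these counts overstate how far it was tried. Centring on all probes cancels in it, and the probe minimums change only which genes are fitted. Keeping outlier spots left both values as they were. At gene level Atm passed in 14 of 15 (adjusted p = 0.0502 with lines 2 and 3 averaged) and Msh3 in 10 of 15, failing with at least 1 probe (0.0502), lines 2 and 3 averaged (0.0924), the probe median (0.0526), without line 2 (0.0844) and without line 3 (0.105). Members past the threshold at gene level were 2, and 4 with at least 1 probe, 0 with lines 2 and 3 averaged, 1 with the probe median, and 1 to 3 leaving out each line in turn. All genes numbered 2276, against 4768 with at least 1 probe, 1479 with at least 5, 731 averaged and 1064 to 3193 leaving out a line. For gene minus flanks the members were 2, 5 with at least 1 probe and 2 to 3 leaving out a line; all genes were 2264, 4672 with at least 1 probe, 1428 in the deposited table, 1430 after loess and 1014 to 3803 leaving out a line. At flank level the members were 0, but 1 with at least 1 probe, 1 centred on all probes, 2 with 1 Mb flanks, 1 with 250 kb flanks and 1 with medians, and 0 leaving out any line; all genes were 3992, 9256 with at least 1 probe, 2363 with at least 5 and 2148 to 3528 leaving out a line. Between animals all genes were 807, 505 after loess and 128 after normexp. Probe correlations fell to 0.553 in the table and 0.501 after normexp for lines 1 and 2, and after normexp to 0.260 for lines 1 and 3 and 0.735 for lines 2 and 3.

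Direction turned for Chek2 at gene level (0.044 deposited table, 0.073 loess, 0.12 normexp) and against flanks (0.072, 0.065, 0.098), and for Brca2 at gene level (-0.0045, -0.021, -0.057) and against flanks (-0.032, -0.066, -0.11). Atr, near 0 throughout, turned at gene level (-0.0099 loess) and against flanks (-0.020 with 250 kb, -0.0019 with gene number corrected, -0.017 loess, -0.029 medians, -0.013 named flanks, -0.0062 normexp, and from -0.016 to 0.029 leaving out each line), at its flanks (-0.0018 deposited table) and between animals (0.0078 normexp). Flanks turned for Chek2 (-0.028 deposited table) and Atm (-0.00099 loess). The cause was not tested. With the deposited values, 806 genes passed above 0 and 1033 below at gene level, against 1339 and 937; at flank level 1946 and 1473, against 2998 and 994. Between animals loess gave 294 above and 211 below. Alternatives with at least 1 or 5 probes for flanks, probe G and C content and named flanks were chosen after seeing the data. No paired analysis was possible because the design has no other group of lines, beyond the pairing of each line with liver of its own animal number that every ratio already holds.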
